A study of Rattus norvegicus with 26 samples.

Results

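Glutamate receptors and the scaffold proteins beneath them at excitatory synapses were measured in the hippocampus of aging rats that had eaten different amounts of vitamin D3. The set was chosen by gene symbol and holds 41 genes: 4 AMPA, 6 NMDA and 5 kainate receptor subunits, 6 metabotropic glutamate receptors, 3 auxiliary subunits of AMPA receptors, 4 MAGUK, 4 SAPAP, 3 SHANK and 3 HOMER scaffolds, and 3 neuroligins. Each member had 1 probe set with a single gene symbol, among 14506 genes measured. Of the 41, 39 had a mean at or above the intensity limit of 6.94 log2 and were tested, among 8485 tested genes in all. Grin2d and Grm8 lay below that limit.

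The animals were male F344 rats, an inbred strain, aged 18 months when the hippocampus was taken. They had eaten a purified AIN-93G diet for 5 to 6 months with cholecalciferol at 100 IU per kg (low, 8 rats), 1000 IU per kg (control, 9 rats) or 10000 IU per kg (high, 9 rats). All diets held some vitamin D3, so the low diet was restricted and not free of it. RNA of each hippocampus went to 1 Affymetrix Rat Gene 1.0 ST array, and values are log2 units deposited by the authors. The comparisons ask whether the amount of the vitamin in the diet altered the RNA levels of these synaptic genes.

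At an excitatory synapse glutamate opens AMPA receptors, which carry the fast current, and NMDA receptors, which let calcium in once the membrane is depolarised. Kainate receptors and the G protein coupled metabotropic receptors modulate release and excitability. MAGUK proteins such as PSD-95 hold the receptors in place, and SAPAP, SHANK and HOMER proteins link them to the cytoskeleton and to metabotropic receptors. In the hippocampus this machinery underlies long-term potentiation, and the vitamin D receptor is a nuclear receptor that binds DNA together with a retinoid X receptor.

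Of the tested members, Grin3a and Grik3 had the largest positive differences between the high and low diets and varied together among rats, so the 250 bases before their transcription starts are shown, from RefSeq on assembly GRCr8. In Grin3a, which encodes the glycine-binding GluN3A subunit, the window is chr5:69001559-69001808 on the minus strand, and capitals mark its single copy of GGTTCA, a recognition element of nuclear receptors, read on the opposite strand. In Grik3, which encodes the kainate receptor subunit GluK3, the window is chr5:143052192-143052441 on the plus strand, and capitals mark 5 GC boxes (GGGCGG, either strand), the element bound by Sp1.
Grin3a: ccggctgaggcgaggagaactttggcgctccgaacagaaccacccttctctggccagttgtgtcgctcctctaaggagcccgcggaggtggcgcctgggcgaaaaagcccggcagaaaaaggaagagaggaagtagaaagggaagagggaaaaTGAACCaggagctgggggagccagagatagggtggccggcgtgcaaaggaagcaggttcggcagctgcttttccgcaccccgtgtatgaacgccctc
Grik3: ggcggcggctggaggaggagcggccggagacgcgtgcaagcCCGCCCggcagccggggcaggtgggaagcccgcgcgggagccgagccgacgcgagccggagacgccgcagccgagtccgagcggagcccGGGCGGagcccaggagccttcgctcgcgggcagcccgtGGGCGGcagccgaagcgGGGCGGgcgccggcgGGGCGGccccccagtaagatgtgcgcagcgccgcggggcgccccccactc

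The Grik3 window had a GC content of 81.6% and the Grin3a window one of 60.4%, against a median of 57.6% over 29 windows of members and 51.2% over 33469 windows of all genes. Windows were found for 28 of the 41 members. Neither spaced form of the vitamin D response element searched, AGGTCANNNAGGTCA or GGTTCANNNGGTTCA on either strand, was in the windows of these 28 genes, and each was in 0.0209% of all windows. The single element GGTTCA was in 3 members, Grik1, Grin3a and Homer1 (10.7%, against 9.77% of all windows), and AGGTCA was in 3 others, Cacng8, Grin2c and Grm8 (10.7%, against 14.1%). A GC box was in 6 members (21.4%, against 30.5%) and TATAAA in 3 (10.7%, against 12.9%). These matches describe letters in a short window and say nothing about binding.

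Array medians ranged from 6.92 to 6.96, no arrays were identical, and precision is set by how many rats there were. The rats came from 14 cages, 12 of them with both cage mates measured, and nothing beyond the cage is known of shared handling. Control rat 17 and high rat 19 stood apart in CA1, CA3 and thalamus markers. The mean of 5 tested CA1 markers was 10.61 in rat 17 and 10.46 in rat 19, below the range of 10.72 to 10.97 in the other 24 rats. The mean of 2 CA3 markers was 9.19 and 9.29 in these rats, against 9.36 to 9.55 in the others. The mean of 2 thalamus markers, Slc17a6 and Prkcd, was 7.62 and 7.66, against 6.94 to 7.52. Dentate granule cell markers averaged 9.78 in rat 17, inside the range of 9.74 to 10.07 in the others, and 9.73 in rat 19, just below it. Blood vessel markers averaged 8.67 in rat 17, inside the range of 8.53 to 8.71 in the others, and 8.52 in rat 19, just below it. Means of cortex and subiculum markers and of GABA neuron markers lay inside the range of the others in both rats. Of the listed markers, 5 of 6 for CA1, 2 of 4 for CA3 and 2 of 4 for thalamus were tested. Values without these rats are given below for Grin3a, Grik3, Gria1, both subunit ratios and the CA1 slopes, and small differences of other members moved too. Without control rat 17, high minus control held 5 members at an unadjusted p under 0.05 (limma) in place of 1: Dlg1, Gria1, Grik3, Grin3a and Grm4. The share of all genes at that level was not counted without this rat, so whether the rise is particular to the members is not known. In whole hippocampal tissue, fewer cells of a type and less RNA per cell cannot be told apart.

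No member passed the test between diets. In the F-test over the 3 diets, limma called 0 of 39 members and 0 of 8485 genes (0%) at an adjusted p under 0.17, a false discovery rate that the series design names, and the smallest adjusted p of a member was 0.998. At an unadjusted p under 0.05 there were 2 members, Grin3a (p of 0.00404) and Grm2 (p of 0.0248), or 5.13% of members against 4.62% of all tested genes.

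Each contrast likewise called 0 members and 0 genes (0% for high minus low, 0% for high minus control and 0% for low minus control, limma, adjusted p under 0.17). At an unadjusted p under 0.05 the high minus low contrast held 2 members, Grin3a and Grik3, against 7.22% of all genes, and both were higher on high, against 4.5% of all genes. High minus control held 1, Grin3a, against 4.63%. Low minus control held 2, Grm2 and Homer2, against 2.27%. The high minus low and low minus control contrasts share the low-diet rats, and the contrasts against control share the control rats. With 39 tested members, shares of 5.13%, 2.56% and 5.13% are near these backgrounds.

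The median difference over the 39 members was -0.0072 log2 for high minus low, with 18 higher (46.2%) and 21 lower. Over all tested genes the median was +0.0053, with 55.2% higher. The median of the members was -0.0048 for high minus control and +0.0051 for low minus control, against +0.00043 and -0.0043 over all genes. In these 3 contrasts the whole 95% interval stayed below 1.2-fold in both directions for 36, 37 and 39 members, compared with 97.9%, 98.5% and 98.7% of all genes. Grin3a, Grik3 and Grm4 were the 3 members with wider intervals between high and low, and Grin3a and Grik3 the 2 between high and control. Within 1.1-fold lay 32, 32 and 34 members, compared with 75.8%, 80.7% and 81.6% of all genes.

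**Figure D1:**
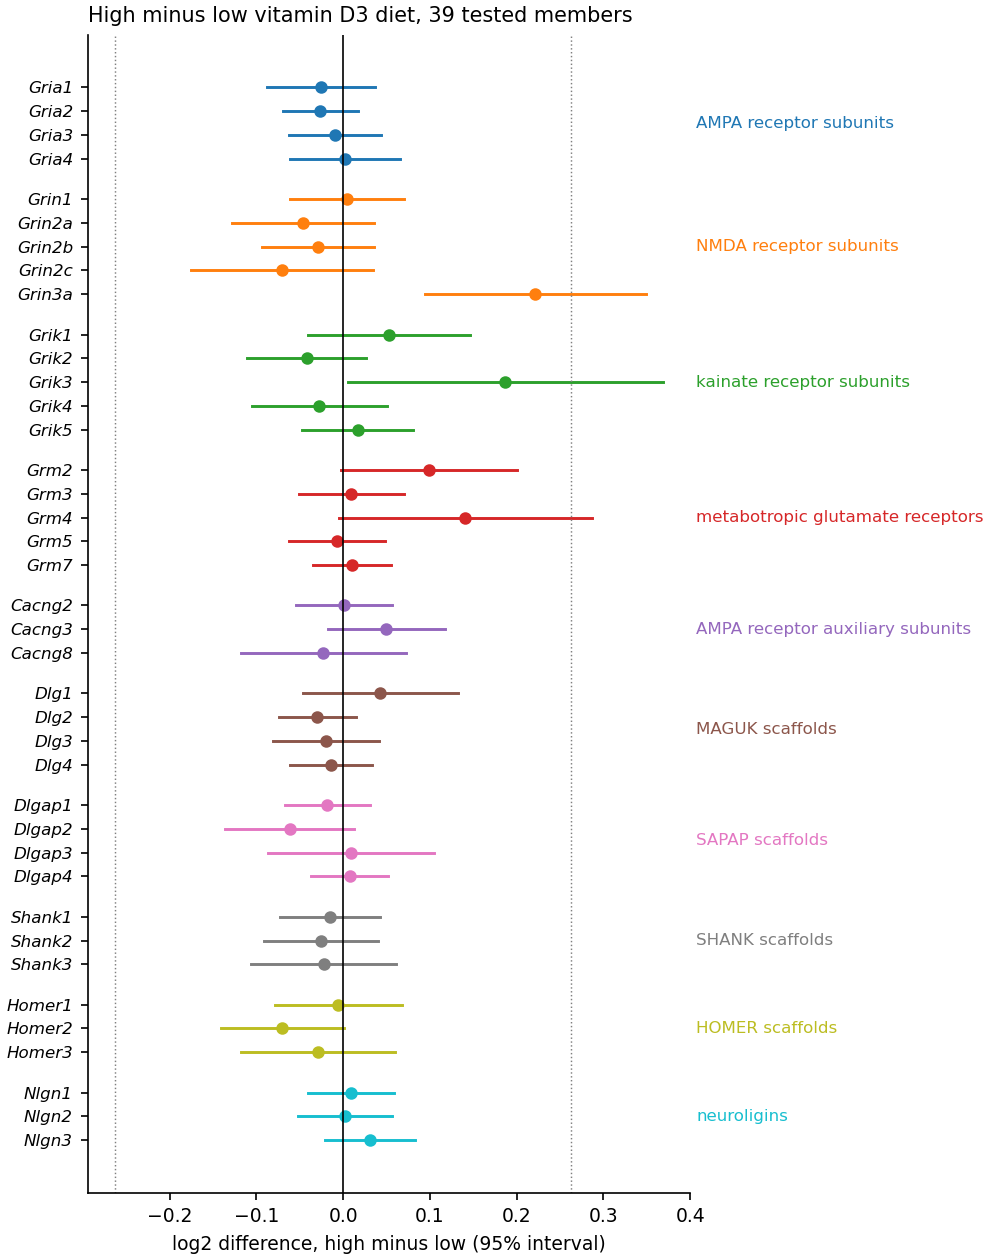
Difference between the high and low vitamin D3 diets (log2, points) with its 95% interval (bars) for the 39 tested members, coloured by family, from the limma fit over 26 arrays. Dotted lines mark 1.2-fold, and the intervals of Grin3a, Grik3 and Grm4 reach past the upper line while the other 36 stay inside.

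Among NMDA receptor subunits, Grin3a (probe set 10876734) had the largest differences between diets. GluN3A makes receptors with low calcium permeability and is most abundant in the young brain. Its values ran from 7.47 through a median of 7.56 to 7.66 on the low diet, from 7.41 through 7.64 to 7.86 on the control diet and from 7.59 through 7.71 to 8.22 on the high diet. On the high diet 7 of 9 values exceeded the whole low group and 3 exceeded the whole control group, and the groups overlapped. Means were 7.57 ± 0.07 (low, SD, n = 8), 7.64 ± 0.12 (control, n = 9) and 7.79 ± 0.19 (high, n = 9). High minus low was +0.22 (SE 0.062, ratio 1.17 with a 95% interval from 1.07 to 1.27), with an unadjusted p of 0.00135 and an adjusted p of 0.637 in limma, rank 18 of 8485 genes. High minus control was +0.15 (SE 0.060, ratio 1.11 with a 95% interval from 1.02 to 1.21), with an unadjusted p of 0.0174 and an adjusted p of 1.

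High rat 19, one of the rats low in CA1 markers, had the highest Grin3a value of all, 8.22. Without it Grin3a differed by +0.17 between high and low (unadjusted p of 0.00171) and by +0.099 between high and control (p of 0.0440) in limma. Of 9 listed markers of cortex and subiculum, which adjoin the hippocampus, 5 were tested. All 5 had a positive high minus control difference. For high minus low, 4 of the 5 differences were positive, and that of Ccn2 was -0.039. The mean of the 5 was 9.90 ± 0.06 (low, SD, n = 8), 9.89 ± 0.09 (control, n = 9) and 9.99 ± 0.09 (high, n = 9). Whether this mean differed between diets was not tested. Individual rats ranged from 9.82 to 9.99, from 9.74 to 10.00 and from 9.84 to 10.07, and all 5 markers had a mean above 6.94. With that mean as a covariate the Grin3a difference was +0.14 between high and low (limma, unadjusted p of 0.0274, adjusted p = 0.981) and +0.058 between high and control (p of 0.351). With the CA1 mean as the covariate, chosen after seeing the data, it was +0.14 (p of 0.00337) and +0.12 (p of 0.00591). Blood vessel markers averaged 8.64 ± 0.05 (low, SD, n = 8), 8.66 ± 0.04 (control, n = 9) and 8.57 ± 0.04 (high, n = 9), with 0 of 8 higher on high than on control. GABA neuron markers averaged 10.44 ± 0.05, 10.47 ± 0.06 and 10.51 ± 0.05 in the same order, with 6 of 6 higher on high than on control and 5 of 6 higher than on low. The part of either list in the result was not tested.

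The main NMDA receptor subunits showed no difference that passed the test. Grin1 encodes the obligatory subunit GluN1. Its lowest, median and highest values were 10.88, 11.08 and 11.18 on low, 11.04, 11.07 and 11.14 on control and 11.00, 11.06 and 11.19 on high, and high minus low was +0.0046 (SE 0.032). Grin2a encodes GluN2A, the subunit typical of the mature forebrain, with 12.52, 12.65 and 12.69 on low, 12.37, 12.61 and 12.69 on control and 12.35, 12.62 and 12.65 on high and a high minus low difference of -0.046 (SE 0.040). Grin2b encodes GluN2B, which prevails earlier in development, with 12.20, 12.31 and 12.40 on low, 12.19, 12.30 and 12.37 on control and 12.12, 12.28 and 12.36 on high and a difference of -0.029 (SE 0.031). The diets overlapped widely in all 3 genes, and the 95% intervals of the high to low ratio were 0.959 to 1.05, 0.915 to 1.03 and 0.937 to 1.02 in that order. Without high rat 19 the Grin2a difference was -0.016. Grin2c differed by -0.070 (SE 0.051), with single rats from 8.95 to 9.39. Grin2d, below the intensity limit, had means of 6.52 (low), 6.55 (control) and 6.54 (high).

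The log2 ratio of Grin2a to Grin2b, a common index of receptor composition, averaged 0.34 ± 0.08 with the low, 0.31 ± 0.07 with the control and 0.32 ± 0.04 with the high diet (SD, n = 8, 9 and 9). The ratio is of 2 probe set signals, so only its change between diets can be read. High minus low was -0.017 (SE 0.031, exact 2-sided permutation p = 0.578), high minus control +0.012 (p of 0.677) and low minus control +0.029 (p of 0.431, all exact), with an adjusted p of 0.813 over 6 tests for each. Without control rat 17 high minus control turned to -0.0056 and low minus control was +0.012, and without high rat 19 high minus control was +0.023 and high minus low -0.0060. Without low rat 7 high minus low was -0.040 and low minus control +0.052.

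No AMPA receptor subunit passed the test between diets, and with all 26 rats 0 of 4 had an unadjusted p under 0.05 in any contrast. Gria1, for GluA1, had lowest, median and highest values of 12.86, 12.95 and 13.06 on low, 12.78, 12.97 and 13.02 on control and 12.82, 12.94 and 12.98 on high. Gria2, for GluA2, which makes AMPA receptors impermeable to calcium, had 13.21, 13.30 and 13.34 on low, 13.22, 13.29 and 13.34 on control and 13.22, 13.28 and 13.31 on high. High minus low was -0.026 (SE 0.030) for Gria1 and -0.026 (SE 0.021) for Gria2, with ratio intervals of 0.941 to 1.03 and 0.953 to 1.01. High minus control of Gria1 was -0.036, and it was -0.059 without control rat 17 (limma, unadjusted p of 0.0270, adjusted p = 0.842) and -0.022 without high rat 19. Gria3 and Gria4 differed by -0.0097 (SE 0.026) and +0.0026 (SE 0.031). All 4 intervals lay within 1.1-fold, and Gria2 had the smallest spread within diets of any tested member (residual SD 0.036).

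The log2 ratio of Gria1 to Gria2 averaged -0.35 ± 0.04 (low, SD, n = 8), -0.32 ± 0.05 (control, n = 9) and -0.35 ± 0.05 (high, n = 9). High minus low was 0.00033, high minus control -0.022 and low minus control -0.023, with exact 2-sided permutation p values of 0.989, 0.358 and 0.319 and adjusted p values of 0.989, 0.813 and 0.813. Without control rat 17 the last 2 were -0.036 and -0.037, and without high rat 19 high minus control was -0.015. Of the auxiliary subunits that carry AMPA receptors to the synapse, Cacng8, for TARP gamma-8 of the hippocampus, had lowest, median and highest values of 10.65, 10.80 and 10.92 on low, 10.45, 10.78 and 10.86 on control and 10.62, 10.76 and 10.92 on high. It differed by -0.023 (SE 0.046) between high and low, while Cacng2 (stargazin) differed by +0.00076 (SE 0.027) and Cacng3 by +0.049 (SE 0.033).

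**Figure D2:**
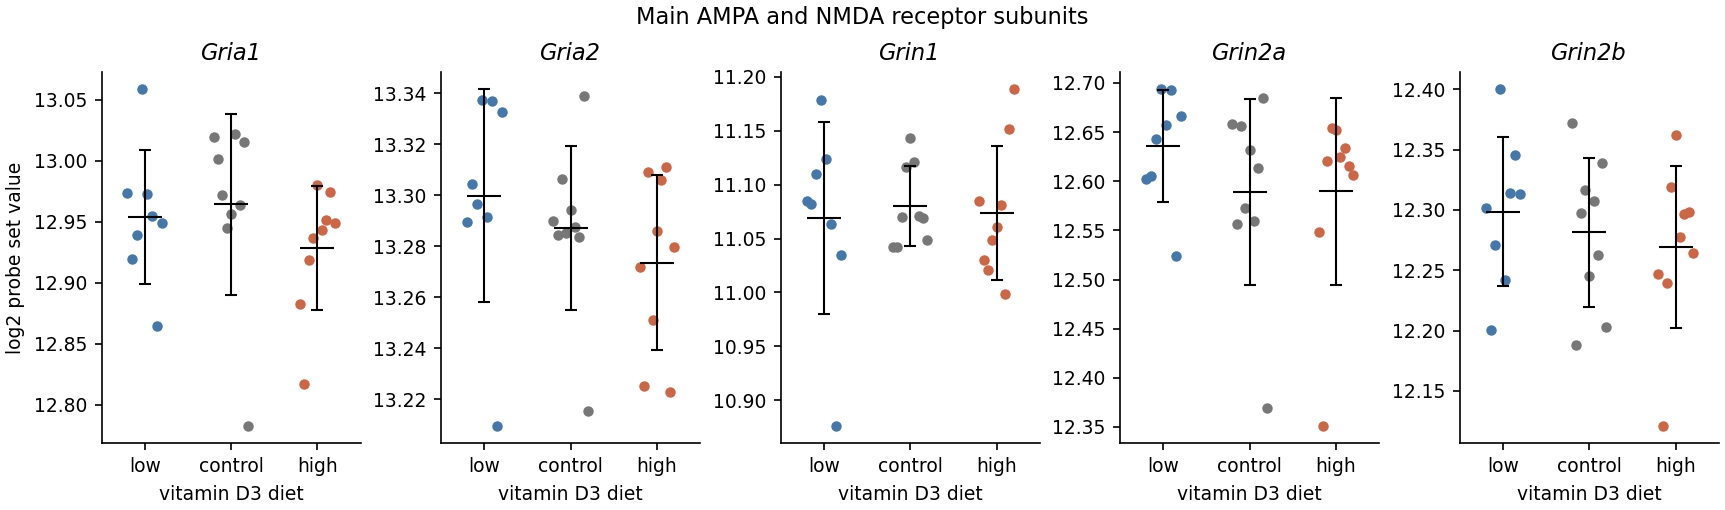
Log2 probe set values of Gria1, Gria2, Grin1, Grin2a and Grin2b in each rat (points) by diet (8 low, 9 control, 9 high), with the mean (line) and SD (bars); each vertical axis has its own range and does not start at 0. The diets overlap in every panel, and the lowest Gria1 value, 12.78, and the second lowest Grin2a value, 12.37, belong to control rat 17.

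Among kainate receptor subunits, Grik3 (probe set 10871939) had the largest difference. Its values ran from 8.90 through a median of 9.14 to 9.22 on the low diet, from 8.90 through 9.12 to 9.83 on the control diet and from 9.14 through 9.23 to 9.69 on the high diet. On the high diet 6 of 9 values exceeded the whole low group, and all 9 lay within the control range, since control rat 17 reached 9.83, the highest value of all. Means were 9.10 ± 0.10 (low, SD, n = 8), 9.15 ± 0.27 (control, n = 9) and 9.29 ± 0.17 (high, n = 9). High minus low was +0.19 (SE 0.089, ratio 1.14 with a 95% interval from 1.004 to 1.29), with an unadjusted p of 0.0439 and an adjusted p of 0.68 in limma, and high minus control was +0.14 (SE 0.086) with an unadjusted p of 0.126.

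Single rats moved the Grik3 values. Without control rat 17 high minus control was +0.22 (limma, unadjusted p of 0.000978, adjusted p = 0.589), and without high rat 19 it was +0.085 (p of 0.301). Without rat 19 high minus low was +0.14 (p of 0.112), and in 7 of 26 omissions of a single rat this contrast had an unadjusted p of 0.05 or more. Leaving out both rats, an alternative added after seeing the data, gave +0.14 for high minus low (p of 0.00667, adjusted p = 0.701) and +0.17 for high minus control (p of 0.0011, adjusted p = 0.866). Of the 5 tested CA1 markers, only Pou3f1 was higher over all rats on high than on low (+0.013) or control (+0.045). Wfs1 had the largest differences, -0.24 and -0.13. Over all rats the CA1 mean was 10.88 ± 0.06 (low, SD, n = 8), 10.83 ± 0.12 (control, n = 9) and 10.79 ± 0.14 (high, n = 9), with ranges from 10.77 to 10.97, from 10.61 to 10.97 and from 10.46 to 10.92. The thalamus mean was 7.08 ± 0.13, 7.22 ± 0.18 and 7.32 ± 0.20 in the same order, but its 2 genes went opposite ways: high minus low was +0.52 for Slc17a6 and -0.038 for Prkcd, and high minus control was +0.35 and -0.16. With the cortex and subiculum mean as a covariate high minus low of Grik3 was +0.10, and with the CA1 mean it was +0.062.

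The other kainate receptor genes showed smaller differences. Grik2, for GluK2, had lowest, median and highest values of 11.20, 11.28 and 11.40 on low, 11.18, 11.29 and 11.35 on control and 11.15, 11.26 and 11.38 on high, and high minus low was -0.042 (SE 0.034). Grik1 differed by +0.053 (SE 0.046), Grik4 by -0.027 (SE 0.038) and Grik5 by +0.017 (SE 0.031), and none of these 4 had an unadjusted p under 0.05.

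Of the metabotropic receptors, Grm2 (probe set 10919953), a presynaptic receptor that restrains glutamate release, had its lowest mean on the low diet. The same was true of Grm3, Grm4, Grm7 and Grm8. Grm2 values ran from 8.68 through a median of 8.89 to 9.07 on the low diet, from 8.88 through 9.00 to 9.22 on the control diet and from 8.73 through 8.99 to 9.10 on the high diet. Of 8 low-diet rats 3 lay below every control rat and 7 below the control mean, and the groups overlapped. Means were 8.89 ± 0.11 (low, SD, n = 8), 9.03 ± 0.10 (control, n = 9) and 8.99 ± 0.11 (high, n = 9). Low minus control was -0.14 (SE 0.050, ratio 0.907 with a 95% interval from 0.845 to 0.973), with an unadjusted p of 0.00808 and an adjusted p of 1 in limma, and high minus low was +0.099 (SE 0.050) with an unadjusted p of 0.0556.

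Grm5, the mGluR5 receptor that binds HOMER proteins, had lowest, median and highest values of 11.57, 11.70 and 11.76 on low, 11.59, 11.69 and 11.71 on control and 11.56, 11.70 and 11.74 on high, and high minus low was -0.0072 (SE 0.027) with a ratio interval of 0.957 to 1.03. Grm4, another presynaptic receptor, differed by +0.14 (SE 0.071) between high and low (limma, unadjusted p of 0.0574), and its highest values, 8.03 and 7.92, were those of control rat 17 and high rat 19. Grm3 and Grm7 differed by +0.0096 (SE 0.030) and +0.011 (SE 0.022). Grm8, below the intensity limit, spread the most of all members, with means of 6.67 ± 0.18 (low, SD, n = 8), 6.86 ± 0.50 (control, n = 9) and 7.03 ± 0.47 (high, n = 9). In a fit without the intensity limit Grm8 differed by +0.35 between high and low (SE 0.18, limma, unadjusted p of 0.0612).

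**Figure D3:**
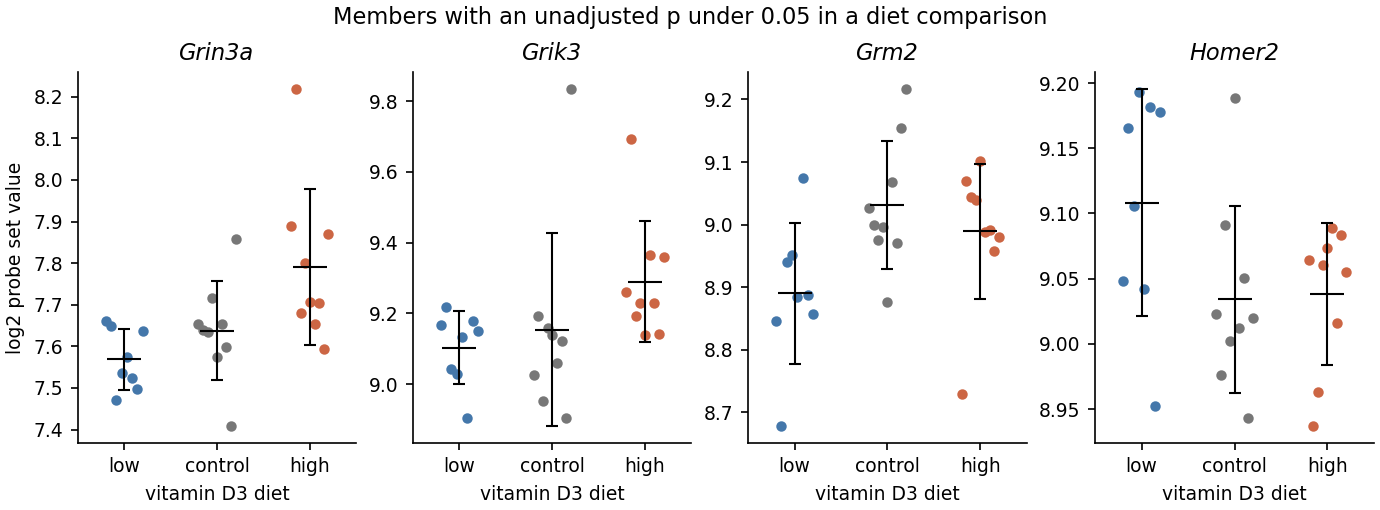
Log2 probe set values in each rat (points) by diet (8 low, 9 control, 9 high) for the 4 members with an unadjusted p under 0.05 in a diet comparison, with the mean (line) and SD (bars); each vertical axis has its own range and does not start at 0. The groups overlap for each gene, and the outlying points at 8.22 (Grin3a) and 9.69 (Grik3) are both high rat 19, while 9.83 (Grik3) is control rat 17.

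No scaffold gene passed the test. Between high and low, 3 of 14 scaffold genes were higher and 11 lower (21.4% higher, against 55.2% of all tested genes). Their median was -0.019, against +0.0053 over all tested genes. All 14 intervals lay within 1.2-fold, as did 97.9% of all genes. The split was 7 and 7 between high and control (50% higher, against 50.6% of all genes). Between low and control 9 were higher and 5 lower (64.3% higher, against 44.1%). The differences from these backgrounds were not tested. Dlg4, for PSD-95, had lowest, median and highest values of 11.93, 11.99 and 12.04 on low, 11.89, 11.98 and 12.02 on control and 11.89, 12.00 and 12.01 on high, and high minus low was -0.014 (SE 0.023) with a ratio interval of 0.958 to 1.02. Dlg1, Dlg2 and Dlg3, its close relatives, differed by +0.043, -0.030 and -0.020.

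SAPAP proteins, encoded by Dlgap1 to Dlgap4, tie PSD-95 to SHANK. Their differences between high and low ranged from -0.062 for Dlgap2 to +0.009 for Dlgap3. Shank3, a core scaffold of the density, had lowest, median and highest values of 9.32, 9.57 and 9.64 on low, 9.40, 9.51 and 9.64 on control and 9.41, 9.51 and 9.65 on high, and high minus low was -0.022 (SE 0.041). Without low rat 7 it was -0.055. Shank1 and Shank2 differed by -0.015 and -0.026. The low Shank3 extreme, 9.32, was low rat 7, which held the lowest value of all 26 rats for 7 of the 41 members. The same count over all genes was not made.

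Homer2 (probe set 10723299) was the scaffold with an unadjusted p under 0.05. Its values ran from 8.95 through a median of 9.14 to 9.19 on the low diet, from 8.94 through 9.02 to 9.19 on the control diet and from 8.94 through 9.06 to 9.09 on the high diet. Of 8 low-diet rats 7 lay above the control mean but only 1 above every control rat. Low minus control was +0.074 (SE 0.035, ratio 1.05 with a 95% interval from 1.002 to 1.11), with an unadjusted p of 0.0405 and an adjusted p of 1 in limma, and high minus low was -0.070 (SE 0.035). In 11 of 26 omissions of a single rat low minus control of Homer2 had an unadjusted p of 0.05 or more, up to 0.0908. Homer1, whose long forms link mGluR5 to SHANK and whose short form is induced by activity, had lowest, median and highest values of 10.25, 10.48 and 10.55 on low, 10.33, 10.40 and 10.56 on control and 10.32, 10.45 and 10.51 on high and a high minus low difference of -0.0055 (SE 0.036). With 1 probe set for the gene, long and short Homer1 forms were not separated here. Homer3 differed by -0.029 (SE 0.043).

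Neuroligins are postsynaptic adhesion proteins that bind neurexins across the cleft. Nlgn1, of excitatory synapses, had lowest, median and highest values of 10.85, 10.91 and 10.99 on low, 10.87, 10.91 and 10.96 on control and 10.82, 10.91 and 10.99 on high, and high minus low was +0.0094 (SE 0.024) with a ratio interval of 0.973 to 1.04. Nlgn2, of inhibitory synapses, and Nlgn3 differed by +0.0022 (SE 0.027) and +0.031 (SE 0.025). Nlgn3 had its largest difference between high and control, +0.050 (SE 0.024), with an unadjusted p of 0.0511 in limma.

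The genes that work beside these members were looked at in the same fit. Of 47 such genes, further receptor subunits, auxiliary proteins, trafficking proteins, signalling enzymes and adhesion molecules, 32 were tested and 0 were called. Between high and low 16 were higher and 16 lower (50% higher, against 55.2% of all tested genes). At an unadjusted p under 0.05 there were 2, or 6.25% against 7.22% of all tested genes. These were Kalrn, a guanine exchange factor of dendritic spines, at -0.067 (limma, p of 0.0141), and Lin7a, a scaffold adaptor, at +0.11 (p of 0.0192), followed by Grid1 at -0.041 (p of 0.0597). Between high and control the smallest p values belonged to Kalrn at -0.050 (p of 0.0533), Grip2 at -0.074 and Grip1 at +0.046. Between low and control they belonged to Grip2 at -0.079 (p of 0.0882), Lin7a at -0.068 and Gripap1 at -0.035.

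The tail mark that told cage mates apart gave a comparison with no diet in it. With diet in the model, limma called 0 members and 0 genes (0%) between 13 marked and 13 unmarked rats. At an unadjusted p under 0.05 there were 4 members, Cacng2, Dlgap4, Homer2 and Nlgn2, all lower in marked rats, against 5.32% of all genes. With all rats that is more members than any diet contrast gave at this level. Compared within the 12 full cages (24 rats, cage as a fixed block in limma, added after seeing the data), the tail mark called 0 members and 0% of genes, and 2 members, Homer2 and Nlgn2, had an unadjusted p under 0.05, against 5.88% of all genes.

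Among rats of the same diet, the members differed in how much they varied. The residual SD within diets had a median of 0.065 log2 over the tested members and 0.076 over all tested genes. It ran from 0.036 for Gria2 to 0.20 for Grik3, which lay at the 98.7th percentile of all genes, with Grm4 at the 96.9th and Grin3a at the 94.2nd. Of the tested members these 3 had the highest residual SD, and they also had the 3 largest differences between high and low.

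Part of that variation went with markers of the hippocampal fields. In a limma fit with diet and the mean of the 5 tested CA1 markers, added after seeing the data, 12 of 39 members were called at an adjusted p under 0.05, or 30.8%, against 7.81% of all genes. Slopes are log2 units per log2 unit of the marker mean. In 7 members the slope was positive (background 5.60%): Grin2a +0.66 (SE 0.093, adjusted p = 4.34e-05), Homer3 +0.61 (SE 0.12, adjusted p = 0.00183), Cacng8 +0.60 (SE 0.14, adjusted p = 0.00804), Grin2b, Dlgap2, Gria1 and Dlg3, the last 4 between +0.40 and +0.44. In 5 it was negative (background 2.21%): Grik3 -1.47 (SE 0.21, adjusted p = 4.34e-05), Grin3a -0.97 (SE 0.16, adjusted p = 0.000301), Grm4 -0.93 (SE 0.22, adjusted p = 0.00638), Grik1 -0.55 and Dlg1 -0.48. Families were split: Grin2a and Grin2b against Grin3a, Dlg3 against Dlg1.

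The number of calls fell without control rat 17, high rat 19 or both. These rats had the lowest CA1 means, so leaving them out narrows the range of that mean, which can itself lower the number of calls. Fewer calls therefore cannot show whether a slope rested on those rats. In 9 of 41 members these rats were the 2 outermost of 26, lowest in Gria1, Cacng8, Grin2a, Grik4 and Homer3 and highest in Grik3, Grm4, Grm8 and Dlg1. How often they were the 2 outermost over all genes was not counted, so whether this is particular to the members is not known. Without both, 0 members and 32 genes (0.377%) were called by limma, and the 12 slopes kept their signs. In that fit 11 members had an unadjusted p under 0.05, a level at which all genes were not counted. The Grik3 slope was -0.93 without both, -1.67 without rat 19 and -1.08 without rat 17, and the Grin2a slope was +0.42 without both and at least +0.58 without any single rat. Without high rat 19 alone 6 members were called, Cacng8, Dlg3, Gria1, Grik3, Grin2a and Homer3. Without control rat 17 alone 10 were called, with Cacng8, Dlg1 and Grm4 lost and Grik2 gained. The share of all genes called was not counted in either fit. The part that tissue makeup has in these differences was not tested.

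**Figure D4:**
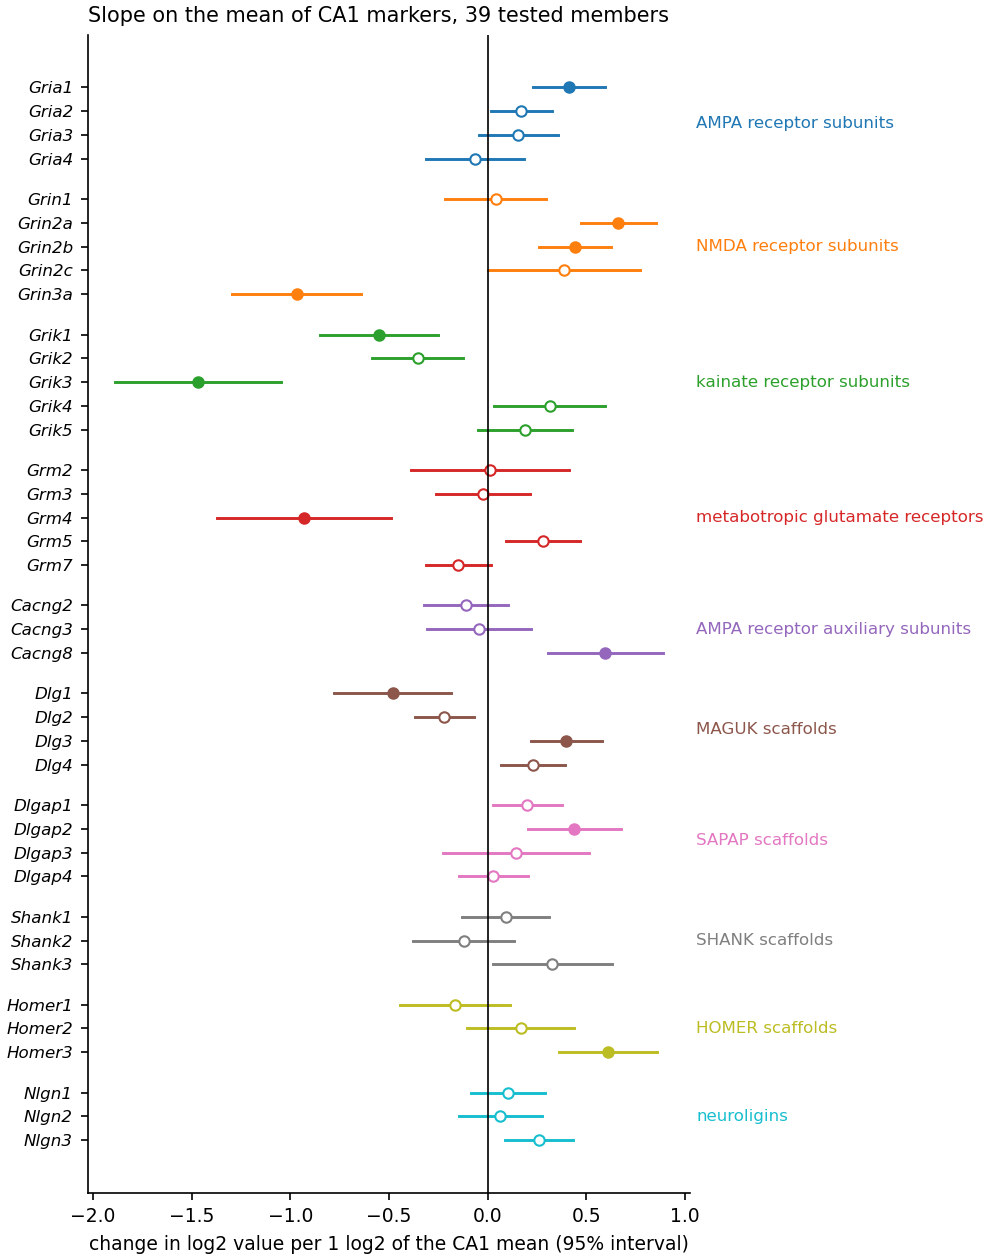
Slope of each of the 39 tested members on the mean of 5 CA1 markers (change in log2 value per 1 log2, points) with its 95% interval (bars), from a limma fit with diet in the model, coloured by family. Filled points mark the 12 members called at an adjusted p under 0.05, 7 positive and 5 negative, with Grik3 the most negative at -1.47 and Grin2a the most positive at +0.66.

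**Figure D5:**
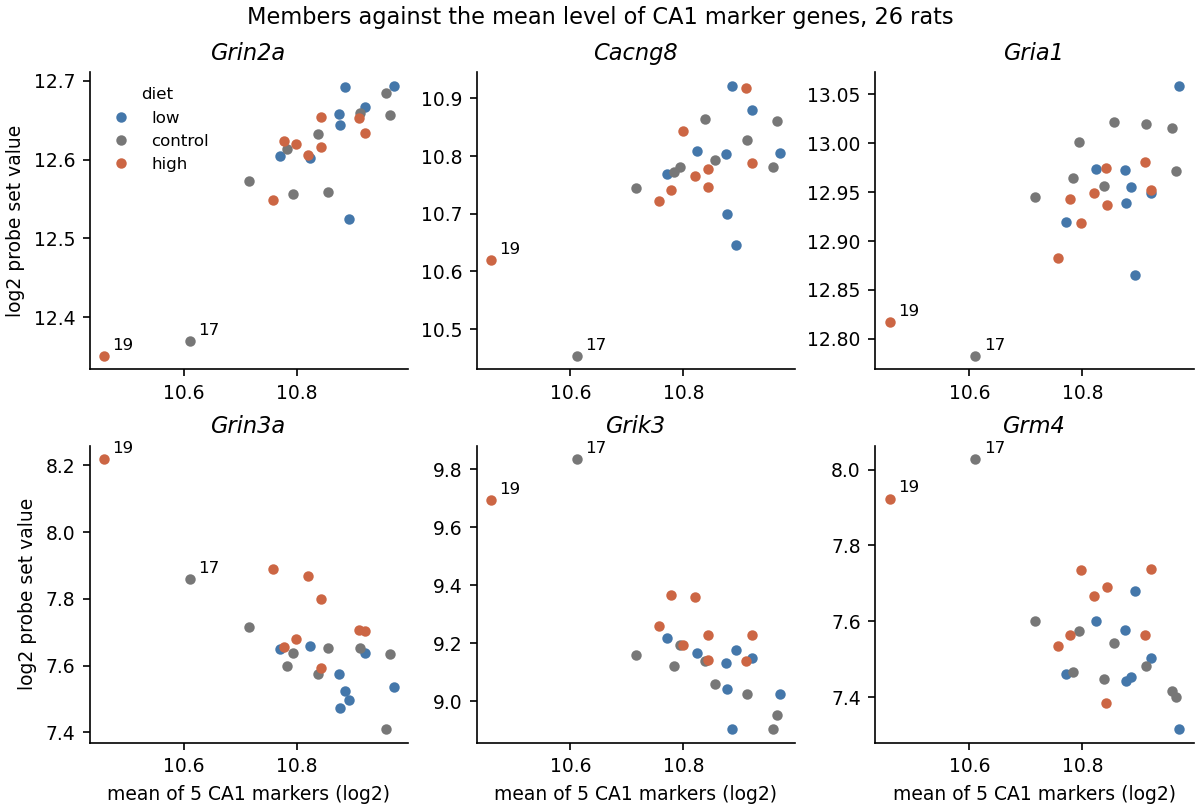
Log2 value of 6 members in each of 26 rats (points, coloured by diet) against the mean of 5 CA1 markers (log2); axes do not start at 0. Control rat 17 and high rat 19 lie far to the left, low for Grin2a, Cacng8 and Gria1 and high for Grin3a, Grik3 and Grm4, and without both rats no member was called.

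Other marker lists called few members. For dentate granule cell markers 1 of 39 was called against 2.65% of all genes, Grin3a with a slope of -1.20 (SE 0.20, adjusted p = 0.00289). That slope was also called without rat 17 and without rat 19, at -1.13 (adjusted p = 0.00483) and -0.95 (adjusted p = 0.00474). For myelin markers 1 was called against 1.79%, Grm3 with +0.41 (SE 0.099, adjusted p = 0.0241), which was lost without low rat 6, control rat 14, high rat 19 or high rat 24 and with no intensity limit. The slope itself lay between +0.38 and +0.44 without any single rat.

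For cortex and subiculum markers 0 of 39 were called against 0.153%, and the smallest p values belonged to Grin3a +0.92 (SE 0.29, adjusted p = 0.231), Grm4 +1.03 (SE 0.34, adjusted p = 0.231) and Homer1 +0.50 (SE 0.17, adjusted p = 0.242). Without low rat 7 this fit called Shank3. The lists added after seeing the data also called 0 members: GABA neurons (0.0826% of all genes), astrocytes (3.99%), microglia (0.578%) and blood vessels (0%). At an unadjusted p under 0.05 the strongest members were Grin3a for GABA neurons, Grm3 for astrocytes, Grik5 for microglia and Dlgap3 for blood vessels.

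Members whose proteins bind each other were then compared among rats, as deviations from the diet means in 11 pairs, with 100000 permutations within diets and adjustment over the 11. Gria1 and Gria2 had r = 0.63 (permutation p = 0.00176, adjusted p = 0.00968, n = 26) and rho = 0.39 (permutation p = 0.0565). Gria1 and Cacng8 had r = 0.75 (permutation p = 0.00087, adjusted p = 0.00957) and rho = 0.50 (permutation p = 0.0102). Without control rat 17 and high rat 19, the rats farthest out in Gria1, r was 0.43 in each pair (permutation p = 0.0829 and 0.0694). Leaving out the outermost rats narrows the range of values, which can itself lower r. A lower r without them therefore cannot show whether a relation rested on those rats.

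Grin2b and Dlg4 had r = 0.51 (permutation p = 0.00994, adjusted p = 0.0273) and rho = 0.42 (permutation p = 0.0379). Without low rat 2 and high rat 19 r was 0.31 (permutation p = 0.151). Dlgap1 and Shank3, neighbours in the scaffold, had r = 0.57 (permutation p = 0.0054, adjusted p = 0.0198) and rho = 0.41 (permutation p = 0.0466), and r = 0.51 (permutation p = 0.0130) without low rat 4 and high rat 25. Of the 4 pairs that passed, this was the one with a permutation p under 0.05 without its outermost rats. On the means of the 14 cages r was 0.59 for Dlgap1 and Shank3, with an adjusted permutation p of 0.207, and 0 of the 11 pairs passed. By rho 0 pairs passed, with a smallest adjusted permutation p of 0.112.

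The other 7 pairs did not pass. Dlg4 and Dlgap1 came nearest, with r = 0.41 (permutation p = 0.0472, adjusted p = 0.104), rho = 0.41 (permutation p = 0.0474) and r = 0.41 (permutation p = 0.0548) without control rat 12 and high rat 19. Grin1, whose subunit is obligatory, had r = 0.30 with Grin2a and 0.031 with Grin2b (permutation p = 0.110 and 0.883), and rho = -0.0017 and -0.0058 (permutation p = 0.994 and 0.979). Shank1 with Homer1 had r = 0.27, Homer1 with Grm5 0.089, Grik2 with Grik5 -0.15 and Nlgn1 with Dlg4 -0.061, with adjusted permutation p values from 0.413 to 0.862. Their rho values were 0.034, 0.20, -0.23 and -0.082 (permutation p = 0.873, 0.340, 0.270 and 0.709). In these 6 pairs r lay between -0.26 and 0.20 without the 2 outermost rats. Arrays share their scaling across genes, and over all pairs of tested genes r had a median of 0.041, with the middle 90% from -0.39 to 0.46. Over the 741 pairs of tested members the median was 0.078, with the middle 90% from -0.53 to 0.61. Of the pairs that passed, Grin2b with Dlg4 (0.51) and Dlgap1 with Shank3 (0.57) lay inside that span. Gria1 with Gria2 (0.63) and with Cacng8 (0.75) lay above it.

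Among Grin3a, Grik3, Grm2 and Grm4, 6 pairs chosen after seeing the data, Grin3a and Grik3 had r = 0.73 (permutation p = 0.0001, adjusted p = 0.0006) and rho = 0.55 (permutation p = 0.00441), and r = 0.62 (permutation p = 0.0045) without control rat 16 and high rat 19. Grik3 and Grm4 had r = 0.82 (permutation p = 0.0002, adjusted p = 0.0006) and rho = 0.59 (permutation p = 0.00268), and r = 0.51 (permutation p = 0.0116) without rats 17 and 19. Grin3a and Grm4 had r = 0.64 (permutation p = 0.00172, adjusted p = 0.00344) and rho = 0.42 (permutation p = 0.0426), and r = 0.54 (permutation p = 0.0169) without rats 16 and 19. Over all rats Grm2 passed with none of the 3, but its relation with Grik3 turned on rats 17 and 19: r was 0.10 with all rats and -0.53 (permutation p = 0.00664) without these 2. On cage means none of the 3 relations passed, with adjusted permutation p values of 0.0757, 0.0757 and 0.506, while Grin3a and Grm2 had r = -0.54 (adjusted permutation p = 0.0466), which was -0.26 without the 2 outermost cages. Grik3 and Grm2 had r = -0.072 on cage means and -0.66 without the 2 outermost cages.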

How the data were processed

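The authors deposited 1 log2 value per probe set and array. The submitters' processing notes name GCRMA and Partek 6.6 without saying what each did. The table holds 29214 probe sets and 0 missing values, from 4.28 to 15.4. Of these, 15310 had 1 gene symbol in the array annotation, 323 had several and 13581 had none. All 41 members matched the RefSeq gene table of assembly GRCr8 by gene ID. Diet, tail mark and cage came from the sample labels.

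A gene with several probe sets was read from its brightest, which gave 14506 genes, and those averaging 6.94 or more (the overall probe set median) were tested. limma 3.58.1 (R 4.3.3) fitted the 3 diets over 26 arrays. Tests were 2-sided, adjusted by Benjamini-Hochberg over all tested genes, and called at an adjusted p under 0.17, or under 0.05 for marker slopes and correlations. Marker fits added the mean of a list's tested genes, for lists with at least 4 of them. Ratios used exact permutation over 24310 or 48620 regroupings, and correlations 100000 permutations within diets. The procedure was tested on simulated data with independent genes, no cage effect and diet differences larger than any of the tested members. Rats are the replicates, and p values take cage mates as independent unless a cage block is named.

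Members named in full were those with an unadjusted p under 0.05 in a diet comparison and 12 core genes of the families. The members, gene lists, pairs and rules were chosen with earlier results of these data known, so none of them is independent support. The alternatives are named in the closing section. Serum vitamin D, behaviour and RNA quality values were not analysed here.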

Additional observations from a re-analysis of the deposited data

Results flagged for a closer look

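Values of 123 groups of rats, 41 members in 3 diets, were searched for a highest or lowest rat that lay apart from the rest of its diet, by a gap relative to the range above Dixon's 95% limit. There were 23 such values, where chance gives about 1 in 20 groups, or 6.2. Members measured on the same array are not independent.

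Control rat 17 held 11 of them. It was the lowest of 9 for Gria1 (12.78), Gria2 (13.22), Cacng8 (10.45), Grin2a (12.37), Grik4 (10.2) and Grm5 (11.59), and the highest for Grik3 (9.83), Grm4 (8.03), Grm8 (8.12), Dlg1 (10.51) and Cacng2 (11.56). High rat 19 held 4, with the lowest Grin2a (12.35) and Homer3 (9.02) of its diet and the highest Grin3a (8.22) and Grik3 (9.69). These rats also had the lowest means of the CA1 and CA3 markers.

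Low rat 7 held 4 as well, being lowest for Gria2 (13.21), Gria3 (12.23) and Shank3 (9.32) and highest for Grm8 (7.1). High rat 18 was lowest for Dlgap4 (9.68) and Grm2 (8.73), low rat 6 highest for Gria4 (10.58) and high rat 26 highest for Nlgn2 (10.41).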

How the results depend on the processing

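In limma 0 members were called in the F-test and the 3 diet contrasts under every alternative run, and the named members' 1956 diet contrasts all stayed uncalled. Their counts at an unadjusted p under 0.05 moved (in the fit reported, 2 in the F-test, 2 for high minus low, 1 for high minus control, 2 for low minus control and 4 for the tail mark). Shares of all genes at this level were not counted under these alternatives, so the counts do not set members apart from other genes. With an intensity limit of 9.20 the F-test, high minus low and low minus control counts were 0. Grin3a (mean 7.67), Grm2 (8.97), Homer2 (9.06) and Grik3 (9.19) lay below that limit and were not tested under it, so these counts are no retest of them. For high minus low the count was 4 with arrays centred on their medians, 5 with quantile normalization, 4 with array quality weights, 6 with values over 2 SD removed, 1 with cage as a random block, 1 with the cortex and subiculum covariate and 4 with the CA1 covariate. For high minus control it was 2 after centring, quantile normalization, an intensity trend with a robust prior, the tail mark as a covariate or the CA1 covariate, 3 with array weights or without control rat 17 and high rat 19, and 5 with values over 2 SD removed. For low minus control it was 1 with the cage block, only 2 diets or the CA1 covariate. The F-test count was 5 with values over 2 SD removed and 1 with the cortex covariate, and the tail mark count 1 after centring. Apart from the members left untested by the higher intensity limit, the cause was not tested.

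Leaving out 1 rat at a time gave 1 to 4 members in the F-test (4 without control rat 17, 1 without low rat 2), 1 to 5 for high minus low (5 without high rat 25, 1 without low rat 3 or high rat 19), 1 to 5 for high minus control (5 without control rat 17), 1 to 3 for low minus control (3 without low rat 7) and 1 to 5 for the tail mark (1 without high rat 26). Called marker slopes ranged from 0 to 1 for cortex and subiculum, 1 to 3 for dentate (3 without low rat 7, 2 without control rat 11), 0 to 1 for myelin and 6 to 15 for CA1, and without both rats 17 and 19 the CA1 count was 0. The share of all genes was not counted for any omission of a single rat. The myelin count was 0 with no intensity limit. Of 418 slopes of named members under alternatives, 31 lost their call and 0 reversed. On cage means the correlations no longer passed: 0.600 for Gria1 and Gria2, 0.705 for Gria1 and Cacng8, 0.665 for Grin2b and Dlg4 and 0.585 for Dlgap1 and Shank3. After centring Dlg4 and Dlgap1 passed at 0.475. The consensus correlation of cage mates was 0.136. The diets share no replicate numbers, so no paired analysis of diets was possible. Cage mates pair the tail mark, and within the 12 full cages, added after seeing the data, its count was 2.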
